A study of Mus musculus with 18 samples.

Results

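The 34 genes described here encode markers and products of hepatic stellate cells and the extracellular matrix of the liver. They were taken by name from a list of stellate identity genes, contractile genes, collagens, other matrix proteins, cross-linking enzymes, protease inhibitors and transforming growth factor beta (TGF-beta) signalling genes. All 34 were found among the 21887 protein-coding genes with a RefSeq span on mm10 (GRCm38.p6). The window of a gene was its span with 5 kb added on each side. The measurement was ChIP-seq of whole liver, deposited as 18 peak lists, and the values are the number of peaks in a window and the base pairs (bp) that they cover.

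All mice were C57BL/6, 8 weeks old and homozygous for a floxed Ctcf allele (CTCF fl/fl). KO mice also carried Cre (Albcre+), and WT mice did not (Albcre-). The albumin promoter that drives this Cre is active in hepatocytes, so the floxed allele is not targeted in stellate cells. Acetylated histone H3 lysine 27 (H3K27ac), found at promoters and enhancers in use, was profiled in 3 KO libraries (KO 2, KO 3 and KO 4) and 3 WT libraries (WT 1, WT 2 and WT 4). H3K4me3, a mark of active promoters, and H3K27me3, the mark left by Polycomb repression, had 1 KO and 1 WT library each. CTCF, the zinc-finger protein of insulators, and PPARg, a nuclear receptor known for fat storage genes, had 2 KO and 2 WT libraries each. Per the labels the CTCF livers and those of PPARg KO 7, KO 8 and WT 2 came from fasted males, while no sex is given for the others. The labels number the libraries but do not say that each came from a separate animal, so p-values measure only the spread between these libraries.

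Stellate cells lie between the endothelium and the hepatocytes and store vitamin A as retinyl esters. On injury, PDGF and TGF-beta turn them into contractile myofibroblasts, which are the main source of fibrillar collagen in the scarred liver. Collagens are cross-linked outside the cell by lysyl oxidases, and their breakdown by metalloproteinases is held back by tissue inhibitors (TIMPs). In a bulk liver sample, fewer cells of a type and less signal per cell cannot be told apart.

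H3K27ac lists held 35480 to 51311 peaks in KO livers and 34324 to 40545 in WT livers. Library KO 4 had the longest list and covered 126 Mb, whereas the other 5 libraries covered 78.2 to 91.5 Mb. Coverage of each window was therefore scaled within its library to the mean covered length of the 6 libraries, and it is called the scaled percent below (it can pass 100 in a window that peaks fill). CTCF lists held 18597 and 20323 peaks in KO livers, against 27585 and 24566 in WT livers, so that CTCF sites were still called in livers with the hepatocyte deletion. PPARg lists held 27439 and 26349 peaks in KO livers, against 15520 and 16617 in WT livers. Read depth is not given by peak lists. The growth protocol attached to the histone libraries and PPARg WT 4 describes neural stem cells although their tissue is labelled liver, and Alb, the albumin gene of hepatocytes, was covered in all 6 H3K27ac libraries (26.6 to 39.4 scaled percent in KO livers, 39.7 to 55.6 in WT livers).

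H3K27ac covered more of the stellate and collagen genes in KO livers than in WT livers, but no gene of the genome passed the test. Of the 32 members with a peak, 28 had a higher mean scaled percent in KO livers and 4 a lower one, while 48.5% of the 14888 genes with a peak were higher in KO livers. The median difference over the 32 members was 2.29 scaled percentage points, KO minus WT, against -0.048 over all genes. In 9 members every KO library lay above every WT library, a pattern found in 7.46% of the 14888 genes. These 9 were the intermediate filament gene Des, the PDGF receptors Pdgfra and Pdgfrb, the collagen I genes Col1a1 and Col1a2, the proteoglycan Dcn, the protease inhibitors Timp2 and Timp3, and the type I TGF-beta receptor Tgfbr1. In Tagln and Fn1 every KO library lay below every WT library, as in 8.67% of the 14888 genes.

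With limma and Benjamini-Hochberg adjustment over all genes, 0 genes passed an adjusted p of 0.05 in either direction (0% of 14888). At an unadjusted limma p under 0.05, 8 members were higher in KO livers (4.71% of the 14888 genes) and 2 were lower (5.99% of them). With KO 4 left out, 10 of 30 members lay above WT (12.2% of all genes), Vim being added, and the median difference was 1.40 points. Without WT 4 the median was 1.38 points. The count above WT was 14 without KO 2 (14.2% of all genes) and 15 without WT 1 (12.4% of all genes). Only 4 members (Vim, Dcn, Timp3 and Tgfbr1) lay above WT (7.27% of all genes) when all lists were trimmed to an equal covered length by dropping their weakest peaks. Among peaks with a −log10 q of at least 5, 0 of 14 members with a peak lay above WT, where 2.05% of all genes did. Unscaled values put 10 members above WT (10.2% of all genes) and Tagln below (1.57%), and windows without stretches near other genes put 8 above (7.74%) and Fn1 below (8.07%). With no flank 8 members lay above WT (7.1% of all genes), Des and Col1a1 being dropped and Col3a1 added, and Fn1 below (7.61%). With 10 kb flanks 8 lay above (7.72%), Col1a1 being dropped, and Tagln and Fn1 below (8.87%).

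**Figure D1:**
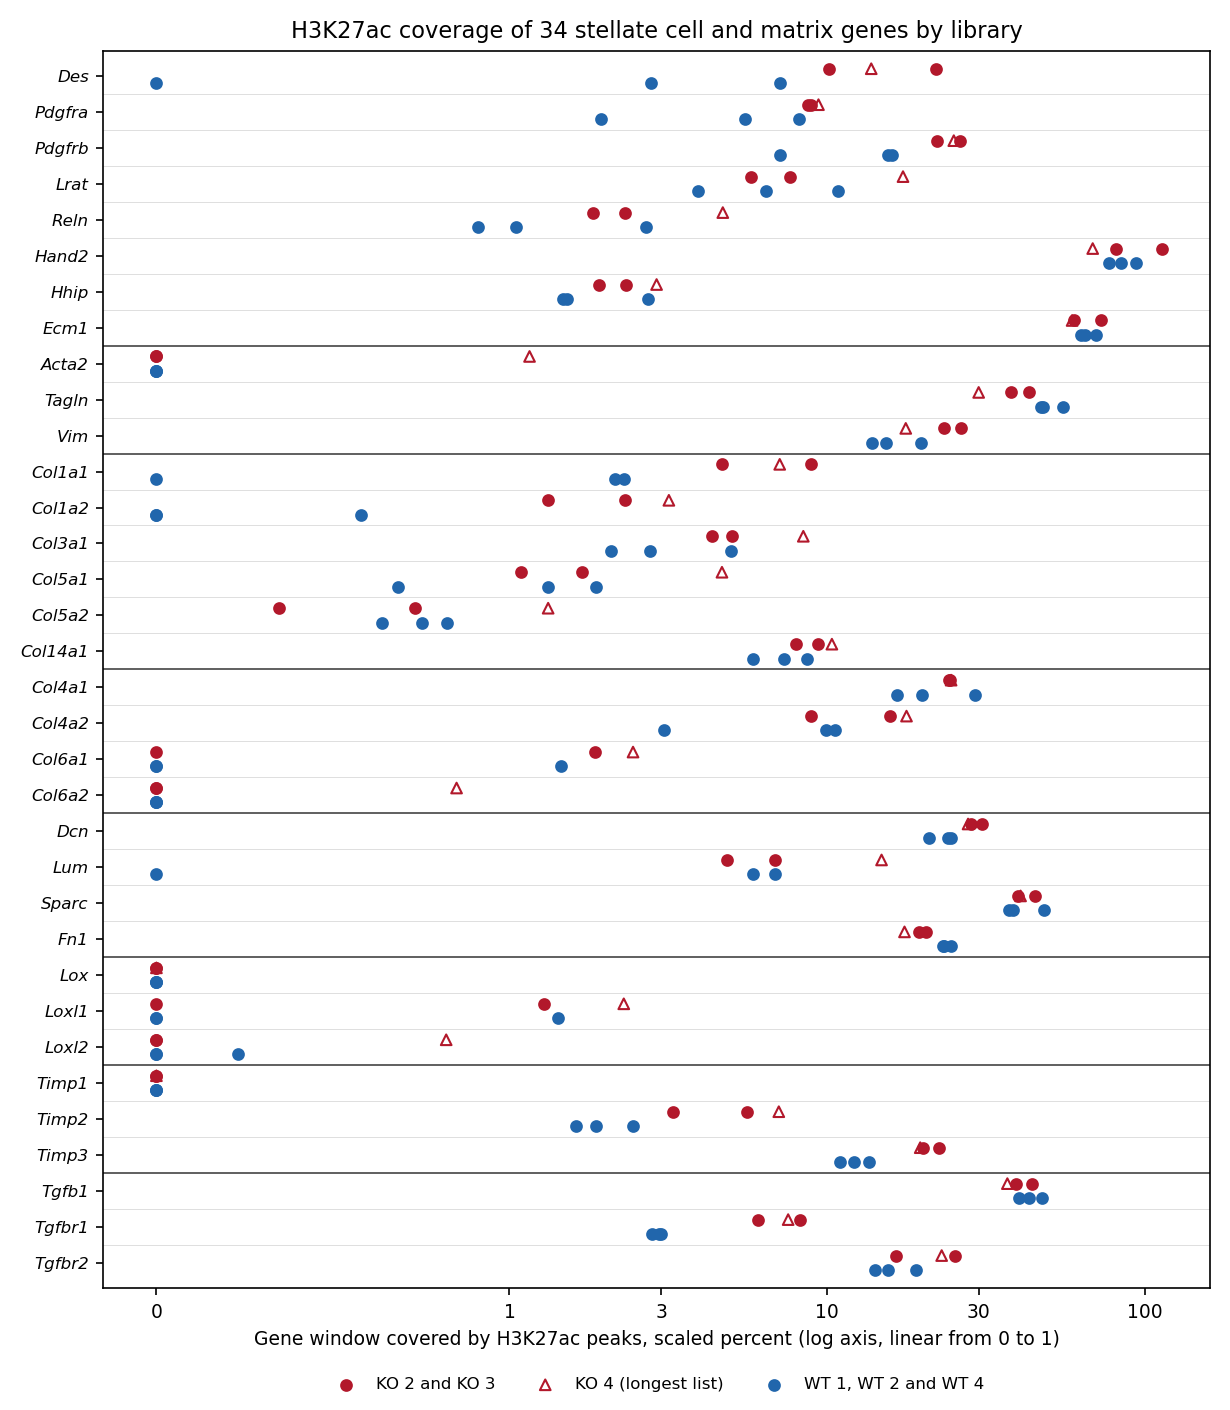
Scaled percent of each gene window covered by H3K27ac peaks (log axis, linear from 0 to 1) for the 34 genes, 1 point per library, with KO libraries in red above WT libraries in blue and lines between roles. The open triangle is KO 4, and in 9 genes, such as Tgfbr1, all red points lie to the right of all blue points.

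Of the 8 stellate identity genes, 3 lay above WT (7.46% of genes with a peak) and 0 below (8.67%). Des, the muscle-type intermediate filament long used to mark stellate cells, had scaled percents of 21.96, 10.2 and 13.8 in KO livers (KO 2, KO 3, KO 4), against 7.09, 2.78 and 0 in WT livers (WT 1, WT 2, WT 4). The mean was 15.3 ± 6.05 in KO livers and 3.29 ± 3.57 in WT livers (SD, n = 3 each), a difference of 12.002 points with a standard error of 3.60 (limma adjusted p = 0.370). All 3 KO libraries had 2 peaks in the window, WT 1 and WT 2 had 1, and WT 4 had none. The extra peak lay upstream of the gene, at chr1:75356979-75359152, 1140 bp before the start, and covered 2153, 612 and 1589 bp in the KO libraries and none in the WT libraries. A region called in all KO and no WT libraries was found in 3 of 34 members, against 1.85% of all genes, and the reverse in 0 of 34, against 0.306%.

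The 150 bases before the start of Des (chr1:75360142-75360291, mm10, plus strand, RefSeq GRCm38.p6) are shown because they lie between the KO-only region and the peaks downstream of the start. Of the 6 libraries KO 4 alone had a peak over these bases, and the downstream peaks began 415 bp (KO 2), 147 bp (KO 3), 343 bp (WT 1) and 1039 bp (WT 2) after the start. Capitals mark GGGCGG, the Sp-factor GC box, and AGGGGGC, a core word of the CTCF motif, on either strand, and the first matches of each overlap. A match is a description and not a bound site.
Des: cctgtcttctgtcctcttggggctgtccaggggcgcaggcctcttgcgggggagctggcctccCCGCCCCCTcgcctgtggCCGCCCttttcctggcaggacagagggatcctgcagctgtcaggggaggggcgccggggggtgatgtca
The sequence has 70.7% G and C and 7 CpG dinucleotides. No H3K4me3 peak was called in the Des window in either genotype.

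Pdgfrb, the receptor for PDGF-BB that drives stellate cell growth, had scaled percents of 22.1, 26.2 and 25.03 in KO livers, against 15.5, 16.0 and 7.13 in WT livers. The difference was 11.6 points with a standard error of 2.79 (limma adjusted p = 0.288). Its window held 4, 5 and 4 peaks in KO livers, against 3, 2 and 2 in WT livers. One region inside the gene, at chr18:61050913-61052931, was called in every KO library (820, 415 and 2019 bp) and in no WT library. Pdgfra, the receptor for PDGF-AA, had 8.89, 8.71 and 9.39 in KO livers, against 8.12, 5.53 and 1.94 in WT livers. Here the KO values were close together and the highest WT library, WT 1, lay just below the lowest of them.

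The other 5 identity genes overlapped between genotypes. Lrat, the enzyme that esterifies retinol for storage, had scaled percents of 7.65, 5.77 and 17.3 in KO livers, against 10.8, 6.40 and 3.91 in WT livers, and its difference of 3.22 points turned to -0.298 without KO 4. Hand2, a transcription factor of stellate cells, was the most covered member, at 113, 81.2 and 68.5 in KO livers, against 93.5, 84.2 and 76.9 in WT livers. Ecm1, a matrix glycoprotein known to hold TGF-beta latent in liver, had 72.5, 59.6 and 59.0 in KO livers, against 70.1, 63.1 and 64.7 in WT livers, and its window also holds part of Tars2. The windows of Reln, a secreted glycoprotein of stellate cells, and Hhip, a Hedgehog inhibitor, were covered at no more than 4.69 scaled percent in any library.

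**Figure D2:**
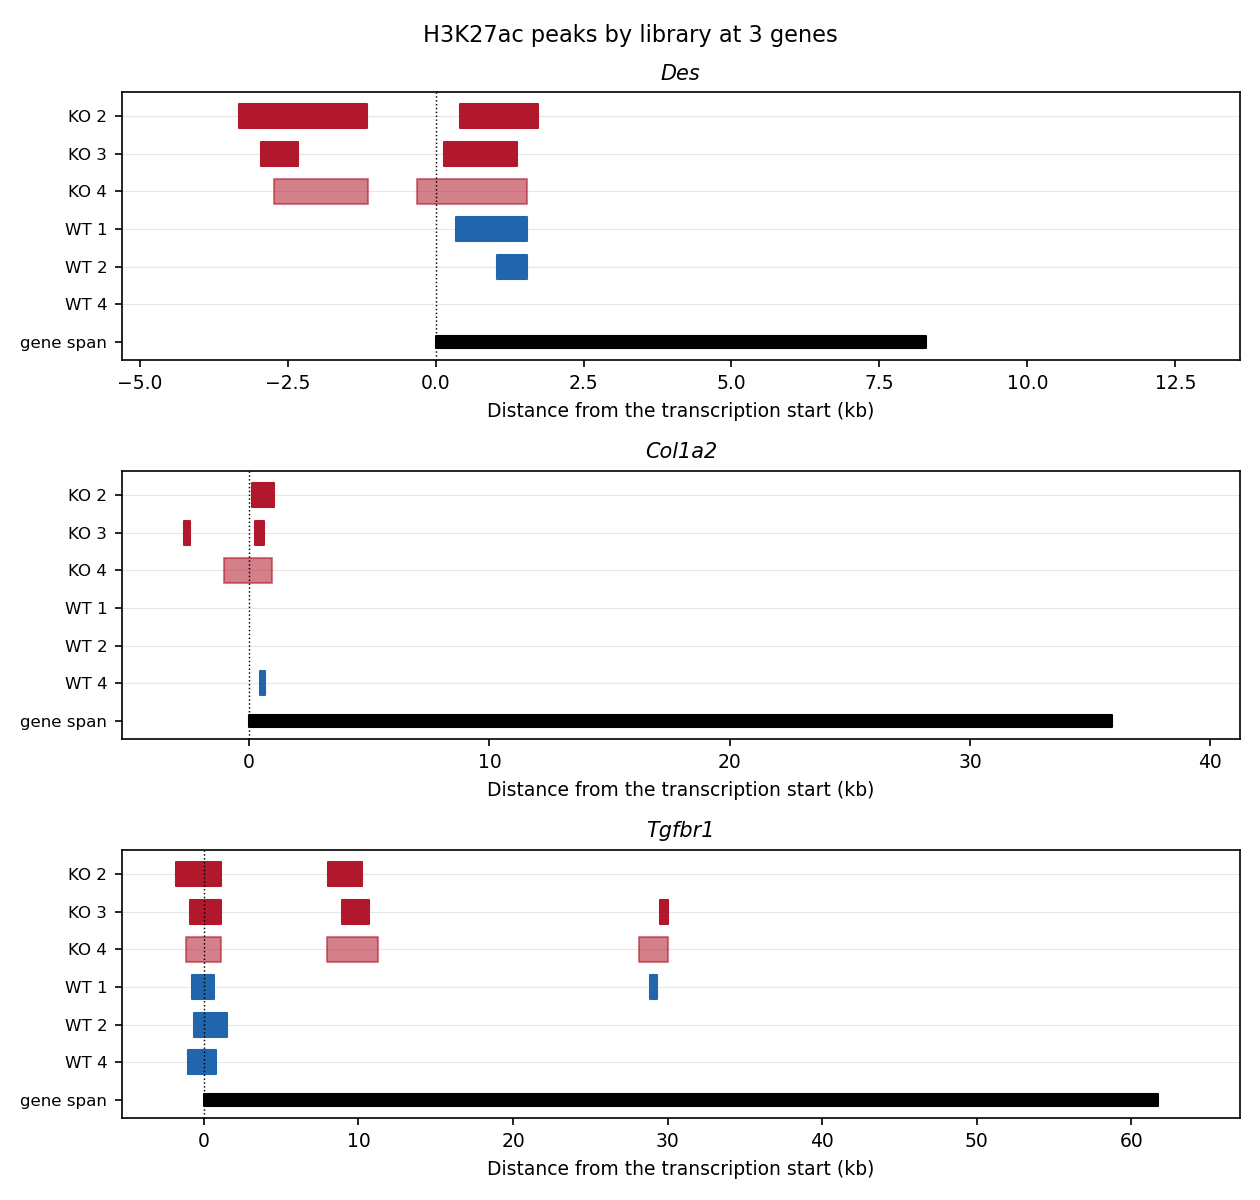
H3K27ac peaks (bars) in each KO library (red, KO 4 lighter) and each WT library (blue) along the windows of Des, Col1a2 and Tgfbr1, by distance in kb from the transcription start, with the gene span in black. Des and Tgfbr1 each have a stretch with a bar in all 3 KO libraries and no bar in the 3 WT libraries.

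Among contractile and cytoskeletal genes, 1 of 3 lay below WT (8.67% of genes with a peak) and none above (7.46%). Tagln, the smooth muscle protein SM22, had scaled percents of 43.3, 38.03 and 29.98 in KO livers, against 47.7, 47.1 and 55.4 in WT livers, a difference of -13.0 points with a standard error of 4.15 (limma adjusted p = 0.392). Its window also holds parts of Pcsk7 and Sidt2, and with stretches within 1 kb of another gene removed the difference was 0.55 points in the other direction. Vim, the mesenchymal intermediate filament, had 26.4, 23.3 and 17.7 in KO livers, against 19.8, 15.3 and 13.8 in WT livers, so that KO 4 stood among the WT values. Acta2, the smooth muscle actin that marks activated stellate cells, had a peak in KO 4 alone, of 400 bp. The other 5 of 6 libraries had no H3K27ac peak in the Acta2 window, and the state of the stellate cells was not tested.

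Collagen I genes had low coverage in every library, higher in KO livers. Col1a1, which encodes the alpha 1 chain, had scaled percents of 4.68, 8.87 and 7.09 in KO livers, against 2.15, 0 and 2.29 in WT livers, a difference of 5.40 points with a standard error of 1.32 (limma adjusted p = 0.292). Col1a2, which encodes the alpha 2 chain, had 2.31, 1.32 and 3.18 in KO livers, against 0, 0 and 0.580 in WT livers, a difference of 2.08 points with a standard error of 0.660 (limma adjusted p = 0.392). Most Col1a2 coverage lay at or just downstream of its start, where 918, 339 and 1997 bp were covered in KO livers, against 0, 0 and 227 bp in WT livers. KO 3 had another peak of 264 bp, 2443 bp upstream. At Col1a1 no region was shared by all 3 KO libraries, and the peaks stood at both ends of the gene. Beyond the gene, the region chr11:94957511-94959452 crossed the window edge and was called in KO 3, KO 4 and all 3 WT libraries. Its 674 bp in WT 2 lay outside the window. With no flank or with 10 kb flanks Col1a1 did not lie above WT.

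The 150 bases before the start of Col1a2 (chr6:4505468-4505617, mm10, plus strand, RefSeq GRCm38.p6) are shown because they adjoin these H3K27ac peaks and an H3K4me3 peak of the KO library, 352 bp downstream of the start. H3K27ac was called over the bases themselves in KO 4 alone, and the H3K4me3 KO library carries the same label, KO 4. Capitals mark CCAAT, the box bound by the factor NF-Y.
Col1a2: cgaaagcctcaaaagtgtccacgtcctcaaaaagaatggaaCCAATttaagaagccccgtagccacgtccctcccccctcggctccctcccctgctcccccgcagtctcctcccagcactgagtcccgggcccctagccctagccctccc
CCAAT is held by 35.4% of the 21263 RefSeq promoters searched (250 bases before the start, either strand) and by 10 of the 25 promoters of members (40%).

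The other fibrillar and fibril-associated collagens overlapped between genotypes. Col3a1, the partner of collagen I in soft tissue, had scaled percents of 4.34, 5.03 and 8.41 in KO livers, against 4.99, 2.08 and 2.78 in WT livers. Col14a1, a fibril-associated collagen, had 8.00, 9.32 and 10.3 in KO livers, against 8.65, 7.31 and 5.83 in WT livers. The collagen V genes Col5a1 and Col5a2, which regulate fibril diameter, were highest in KO 4, at 4.67 and 1.32 scaled percent.

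None of the 4 basement membrane and beaded filament collagens separated the genotypes. Col4a1 and Col4a2, neighbours that share 1 promoter region, overlapped between genotypes. Col4a1 had scaled percents of 24.1, 24.3 and 24.6 in KO livers, against 29.1, 19.8 and 16.6 in WT livers. Col4a2 had 8.87, 15.7 and 17.8 in KO livers, against 10.6, 9.93 and 3.06 in WT livers. The collagen VI gene Col6a2 had a peak in KO 4 alone, and Col6a1 had 1 in KO 3, KO 4 and WT 4.

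Among proteoglycans and glycoproteins, Dcn was above WT and Fn1 below. Dcn, the decorin core protein that binds collagen fibrils, had scaled percents of 28.4, 30.7 and 27.8 in KO livers, against 24.6, 23.9 and 20.9 in WT livers (28.9 ± 1.55 in KO livers and 23.1 ± 2.00 in WT livers, SD, n = 3 each). The difference was 5.81 points with a standard error of 1.36 (limma adjusted p = 0.287), and 5.93 points without KO 4. Fn1, the gene of fibronectin, which hepatocytes secrete into plasma, had 20.5, 19.4 and 17.5 in KO livers, against 23.3, 23.1 and 24.5 in WT livers, a difference of -4.47 points with a standard error of 0.953 (limma adjusted p = 0.271). Without scaling the Fn1 values of the genotypes overlapped. Lum, another small proteoglycan, ranged from 4.84 to 14.8 in KO livers and from 0 to 6.85 in WT livers, and Sparc, a collagen-binding glycoprotein, from 39.7 to 45.1 in KO livers and from 37.4 to 48.0 in WT livers.

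The cross-linking enzymes were almost bare. Lox, the founding lysyl oxidase, had no H3K27ac peak in any library, while Loxl1 reached 2.29 and Loxl2 0.821 scaled percent, both in KO 4. Timp1, the inhibitor that activated stellate cells secrete, was the other member without a peak, where 32% of all genes had none. A peak in all 6 libraries was found in 23 of 34 members, against 57.3% of all genes.

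Both other protease inhibitors lay above WT. Timp3, a matrix-bound inhibitor, had scaled percents of 20.02, 22.4 and 19.6 in KO livers, against 13.6, 10.99 and 12.2 in WT livers (20.7 ± 1.51 in KO livers and 12.2 ± 1.28 in WT livers, SD, n = 3 each). Its difference of 8.45 points, with a standard error of 1.09, had the lowest adjusted p of the members (limma adjusted p = 0.206). The Timp3 window lies within the span of Syn3 on the annotation, so these peaks cannot be assigned to either gene alone. Timp2, which also takes part in activating pro-MMP2, had 3.27, 5.59 and 7.04 in KO livers, against 1.62, 1.87 and 2.44 in WT livers (adjusted p = 0.399, limma).

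Of the TGF-beta ligand and receptors, only Tgfbr1 separated the genotypes. Tgfbr1, the kinase receptor that phosphorylates SMAD2 and SMAD3, had scaled percents of 8.19, 6.04 and 7.54 in KO livers, against 2.80, 2.99 and 2.97 in WT livers. The means were 7.26 ± 1.10 in KO livers and 2.92 ± 0.1004 in WT livers (SD, n = 3 each), 2.49 times as high, and the difference was 4.34 points with a standard error of 0.708 (limma adjusted p = 0.247). Each library had a peak over the promoter. The additional coverage in KO livers came mostly from chr4:47361182-47364480, inside the gene and 7960 bp downstream of the start, which covered 2217, 1804 and 3299 bp in the KO libraries and none in the WT libraries. Tgfbr2, the ligand-binding receptor, had 16.5, 25.3 and 22.9 in KO livers, against 14.1, 15.6 and 19.05 in WT livers, and Tgfb1, the ligand, had 39.3, 44.1 and 36.9 in KO livers, against 47.4, 40.2 and 43.0 in WT livers.

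**Figure D3:**
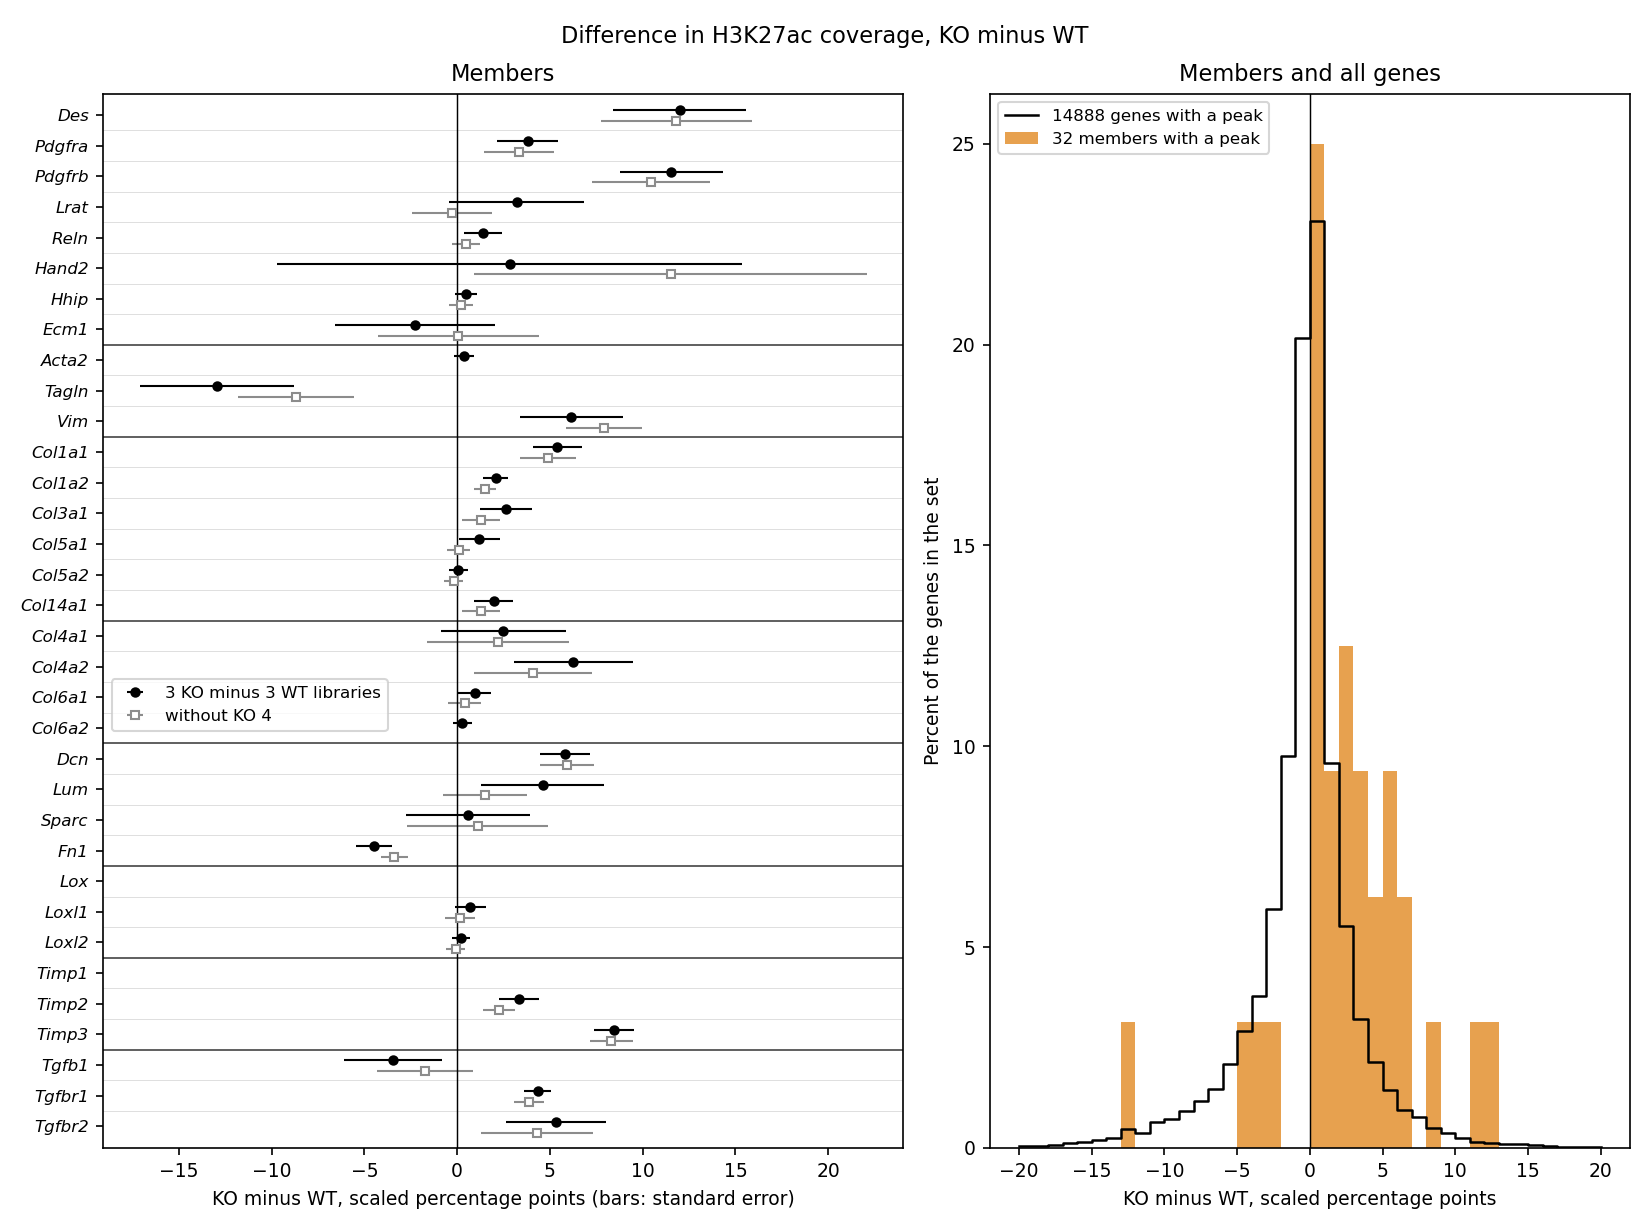
Left, KO minus WT in scaled percentage points with the limma standard error for each gene (black, 3 KO and 3 WT libraries; grey squares, without KO 4). Right, the share of the 32 members with a peak (orange) and of all 14888 genes with a peak (black line) by that difference; differences beyond 20 points are not drawn. The members' median is 2.29 points and that of all genes -0.048.

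Genes of the same pathways were looked at beside the members. Among all genes with a peak, 7.46% lay above WT and 8.67% below. Of 22 further TGF-beta pathway genes, 6 lay above WT and 0 below, with a median difference of 1.29 points. They were the ligand Tgfb3, the signal transducer Smad3, the inhibitory Smad6, the target Ccn2, and Thbs1 and Itgav, which release latent TGF-beta. Ccn2 had scaled percents of 62.5, 61.2 and 50.5 in KO livers, against 45.7, 44.2 and 33.7 in WT livers (limma adjusted p = 0.3503). Of 4 PDGF ligand genes, Pdgfb lay above WT, with 7.94, 10.4 and 7.11 in KO livers, against 2.11, 2.38 and 0 in WT livers (limma adjusted p = 0.248). Of 36 other matrix genes with a peak, 6 lay above WT (Col16a1, Efemp1, Lama2, Lamc1, P4ha2 and Thbs2) and Fbln1 below, with a median of 1.17 points. Of 16 other stellate genes with a peak, 5 lay above WT, among them Rgs5, Lhx2, Tcf21 and Ednrb, and 0 below, with a median of 3.82 points.

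Markers of the other liver cells were set beside the members. Among all genes with a peak, 7.46% lay above WT and 8.67% below, or 12.2% above and 12.3% below without KO 4. Of 16 hepatocyte genes, 4 lay below WT, among them Alb, Tat and Cps1, and 0 above. All 16 had a lower mean in KO livers, with a median difference of -11.1 points, or -3.23 without KO 4 and -2.30 without scaling. Their summed scaled percent ranged from 738 to 1065 in KO livers and from 1005 to 1183 in WT livers. The members' own sum ranged from 526 to 562 in KO livers and from 423 to 518 in WT livers. Endothelial genes had 2 of 16 below WT (Stab2 and Fcgr2b) and 0 above, or 6 below and 2 above without KO 4, with sums of 534 to 567 in KO livers and 551 to 586 in WT livers. Macrophage genes had none apart, with sums of 81.9 to 219 in KO livers and 63.4 to 256 in WT livers, and Vsig4 and Marco at 0. Lymphocyte genes had Cd3d above WT, with sums of 78.6 to 110 in KO livers and 77.9 to 86.2 in WT livers, and Cd3e, Cd8a and Cd79b among those at 0. Cholangiocyte genes had Spp1 above WT, with sums of 87.3 to 95.3 in KO livers and 80.1 to 91.6 in WT livers, and Krt7, Krt19, Epcam and Cftr at 0. The part of any change in cell numbers in the members' differences was not tested.

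H3K4me3, with 1 library per genotype (KO 4 and WT 2) and so no replicate check, was called at more members in the KO library. The longest H3K27ac list carries the same label, KO 4. A peak stood in the window of 23 of 34 members in the KO library (59.6% of all genes) and of 19 in the WT library (57.5% of all genes). Members with a peak in the KO library alone were Pdgfrb, Col1a2, Col3a1, Loxl1 and Timp2 (3.15% of all genes), each with no more than 422 bp. Tagln had a peak in the WT library alone (1.06% of all genes), over a stretch within 1 kb of Pcsk7. Of 24 members with a peak in either library, 8 had at least 2-fold more covered bp in the KO library and 1 had at least 2-fold less. Among the 13268 genes with a peak in either library these shares were 7.39% and 3.91%.

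Among identity genes H3K4me3 coverage was wider in the KO library at each gene with a peak. Hand2 had 4437 bp in the KO library, against 3149 bp in the WT library. Lrat had 1781 bp in the KO library, against 864 bp in the WT library, and Ecm1 had 1001 bp, against 347 bp in the WT library. These genes already carried the mark in the WT library, as did Reln, Hhip and Pdgfra. Hhip had 844 bp in the KO library, against 288 bp in the WT library, and Pdgfra had 1994 bp, against 1260 bp in the WT library. The Pdgfra peak nearest its start covered 1242 bp in the KO library alone. Fn1 was less covered, with 3068 bp in the KO library, against 4312 bp in the WT library. The TGF-beta genes were less covered too, Tgfb1 with 2442 bp in the KO library, against 2899 bp in the WT library, and Tgfbr2 with 1651 bp, against 2181 bp in the WT library. Tgfbr1 had 2367 bp in the KO library, against 2662 bp in the WT library. The WT list covered more of the genome, 21.7 Mb against 19.1 Mb in the KO list.

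Promoters with a RefSeq sequence numbered 25, from 23 members, and were compared by their H3K4me3 call within 1 kb of the start. The 13 called in both genotypes had a median of 18 CpG in the 250 bases before the start (range 1 to 37), against 17 for the 10741 promoters of all genes called in both. The 4 called in the KO library alone (Col1a2, Col3a1, Hhip and Pdgfra) had 0 to 28, with a median of 7.5, and the 8 called in neither had a median of 6. Reln, with 37 CpG, was the most CpG-rich promoter of the members and Col3a1, with 0, the least. TATAAA was in 3 of the 25 (12%, against 11.6% of all promoters), GGGCGG in 16 (64%, against 42.6%), any of the CTCF core words AGAGGGC or AGATGGC, or AGGGGGC, or AGGTGGC in 12 (48%, against 25.7%), and the CArG box of serum response factor in none (1.39% of all promoters). Median G and C was 65.6% (all promoters 60.8%) where called in both, 57.6% (48.8%) in neither and 58.2% (61.4%) in the KO library alone. The part of base composition in these word counts was not tested.

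H3K27me3 was found at 10 of 34 members in the KO library (13.7% of all genes) and at 9 in the WT library (12.5% of all genes), again with 1 library per genotype. Called in both were Pdgfra, Lrat, Hand2, Hhip, Col1a1, Col5a1 and Col14a1. Hand2 was the most covered, with 4729 bp in the KO library and 2502 bp in the WT library, and part of this was a KO-only stretch of 2281 bp beyond its end. Pdgfra had 823 bp in the KO library and 1942 bp in the WT library, mostly upstream of the gene. Col14a1 had 1229 bp in the KO library and 273 bp in the WT library. Pdgfrb (1149 bp), Lox (392 bp) and Loxl1 (266 bp) were called in the KO library alone (3.62% of all genes), and Acta2 (317 bp) and Timp3 (484 bp) in the WT library alone (2.46% of all genes). The Acta2 peak lay 4168 bp outside the gene, within 1 kb of Stambpl1. That of Timp3 lay 177 bp from its start, within 1 kb of Syn3. At Pdgfrb a stretch of 725 bp lay outside the gene, within 1 kb of Gm52351.

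Of the 12 members with H3K27me3, 4 had at least 2-fold more bp in the KO library and 3 at least 2-fold less. Among the 3538 genes with a peak in either library these shares were 45.1% and 20.3%. The KO list was the longer, with 6.25 Mb against 4.01 Mb. No H3K27me3 peak at a member had a −log10 q of 5 or more. Windows with both H3K4me3 and H3K27me3 numbered 7 in the KO libraries (6.2% of all genes) and 6 in the WT libraries (4.48% of all genes). Hand2, Lrat, Hhip, Pdgfra and Col5a1 held both marks in both genotypes. All of these but Col5a1 are listed as stellate identity genes, but every member was chosen as a stellate or matrix gene. Their cell type was therefore set by that choice. Of the 16 hepatocyte genes used for comparison, 0 had an H3K27me3 peak in the KO library and 0 in the WT library. The other cell type lists did hold the mark. KO and WT counts were 3 and 4 of 13 macrophage genes and 3 and 2 of 16 endothelial genes. They were 3 and 0 of 12 lymphocyte genes, 2 and 0 of 9 cholangiocyte genes, and 10 and 9 of 17 other stellate genes. The H3K4me3 and H3K27me3 libraries carry different labels, so whether both marks lie in the same liver or cell was not tested.

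**Figure D4:**
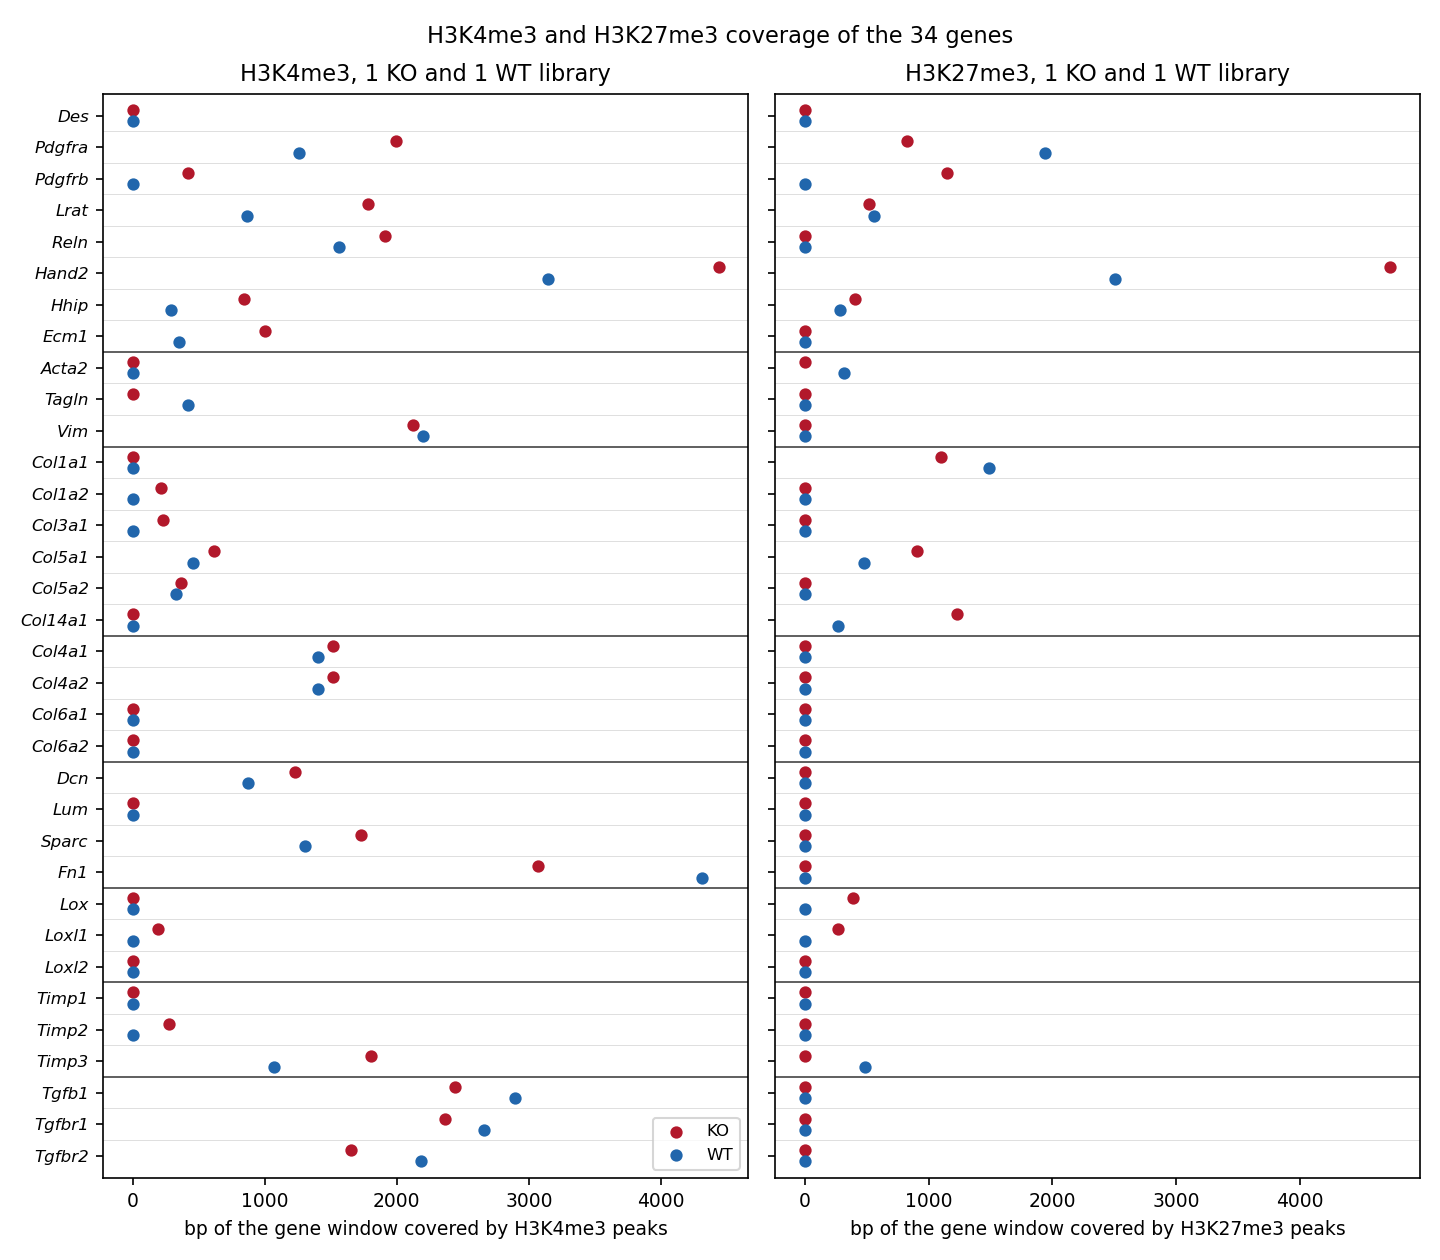
Base pairs of each gene window covered by H3K4me3 (left) and H3K27me3 (right) peaks in the KO library (red) and the WT library (blue), not scaled. Hand2 is among the most covered members for both marks, and its red points lie to the right.

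Most CTCF sites at the members were called in both genotypes, and the share lost in KO livers was near that of all genes. A CTCF peak stood at 25 of 34 members in at least 1 library (53.2% of all genes) and at 19 in every library (38.8% of all genes). By library, 21 members had a peak in KO160 (41.2% of all genes) and 19 in KO163 (43.5%), against 24 in WT164 (51%) and 24 in WT165 (48.4%). Hand2, Lrat, Hhip, Ecm1, Dcn, Lum, Fn1, Loxl1 and Timp1 had none.

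The windows held 49 CTCF regions, of which 35 were called in both WT libraries, and 29 of these were called in both KO libraries too, against 72.1% of the regions of this kind near all genes. The 4 lost regions, called in both WT and neither KO library, were 11.4% of the 35, against 13.4% near all genes, and 0 were gained, against 0.17% of all regions near genes. The lost regions lay at Col1a1, Col4a2, Col6a2 and Loxl2. Among peaks with a −log10 q of at least 10, 19 of 27 regions were kept and 5 lost, and the share near all genes was not taken at this threshold. With WT164 left out 9 regions counted as lost, and with WT165 left out 13, since a call in 1 WT library then sufficed.

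The lost region at Col6a2 was the only one over a promoter. It spanned chr10:76622978-76623568, was called with a fold enrichment of 11.1 in WT164 and 6.86 in WT165 (the authors' values), and had its summits 8 bp downstream and 56 bp upstream of an annotated start. It covered 0 and 0 bp in KO livers, against 591 and 341 bp in WT livers. The 150 bases before that start (chr10:76623405-76623554, mm10, minus strand, RefSeq GRCm38.p6) are shown because the lost region covers them. The promoter of Tgfb1 (chr7:25686852-25687001, plus strand) is shown beside it because its CTCF region was called in all 4 libraries. Capitals mark GGGCGG on either strand, including 2 overlapping matches at the end of the Col6a2 sequence. None of the 4 CTCF core words was found in either printed stretch. In the longer promoter stretch used for the motif counts, a core word was found at Tgfb1 but not at Col6a2. Only exact words were searched, so near matches to the CTCF motif were not tested.
Col6a2: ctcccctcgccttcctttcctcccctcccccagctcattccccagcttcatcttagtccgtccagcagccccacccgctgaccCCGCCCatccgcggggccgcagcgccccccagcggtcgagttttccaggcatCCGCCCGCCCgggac
Tgfb1: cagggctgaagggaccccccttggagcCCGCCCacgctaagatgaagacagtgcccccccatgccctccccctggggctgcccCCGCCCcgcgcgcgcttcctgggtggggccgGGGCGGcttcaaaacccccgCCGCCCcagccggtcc
At Tgfb1 the CTCF region covered 241 and 988 bp in KO livers, against 893 and 502 bp in WT livers, with fold enrichments of 6.17 and 5.45 in KO livers, against 15.1 and 10.6 in WT livers.

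The other lost regions lay within or beyond genes. At Col1a1 the region at chr11:94942209-94943266, inside the gene, covered 0 and 0 bp in KO livers, against 1058 and 315 bp in WT livers, while regions at chr11:94936361-94937610 and chr11:94938814-94940212 were called in all 4 libraries. At Loxl2 the region chr14:69697084-69697665 lay 1250 bp outside the gene, within 1 kb of R3hcc1, and covered 479 and 444 bp in WT livers alone. At Col4a2 the region chr8:11450503-11450973 lay 1216 bp outside the gene and covered 432 and 351 bp in WT livers alone, next to 4 regions within Col4a2 called in every library. The highest fold enrichment of a CTCF peak at a member was in the region beyond Col1a2 (chr6:4544607-4546670), where it was 10.8 and 16.1 in KO livers, against 28.0 and 16.8 in WT livers.

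Over whole windows, scaled to the mean covered length of the 4 lists, CTCF coverage passed an adjusted p of 0.05 at 0 members and 0 of 11643 genes (0%, limma). At an unadjusted limma p under 0.05, 4 of 25 members were lower in KO livers (6.58% of the 11643 genes), namely Col1a1, Col6a2, Loxl2 and Tgfbr2. None was higher (6.12% of the 11643 genes). Col1a1 had 1286 and 1757 scaled bp in KO livers, against 2454 and 2707 in WT livers. Tgfbr2 had 739 and 690.3 scaled bp in KO livers, against 1780 and 1240 in WT livers. The groups did not overlap at 5 members higher (21.8% of the 11643 genes) and 7 lower (21.4% of them) in KO livers. On a log2(scaled bp + 100) scale 519 genes passed lower and 10 higher in KO livers, with Col6a2 and Loxl2 among those lower.

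PPARg peaks were called at 10 of 34 members in at least 1 library (41.2% of all genes). Pdgfra, Tagln, Col14a1, Col4a1 and Fn1 had a peak in all 4 libraries (21.4% of all genes). By library, 10 members had a peak in KO 7 (36.7% of all genes) and 8 in KO 8 (35.5%), against 5 in WT 2 (25.5%) and 8 in WT 4 (25.8%). Members with a peak in every WT library numbered 5, or 8 with WT 2 left out. Of the 25 promoters with a RefSeq entry, that of Tgfbr2 had a PPARg peak within 1 kb of the start, in KO 8 alone, and the other 24 had none. Of 26 PPARg regions in the windows, 6 had a peak in each KO library and none in WT livers (18% of all regions near genes), and 0 had the reverse pattern (1.12% of them).

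The KO-only regions lay at Tgfbr2 (3), Col14a1 (2) and Col4a2 (1). Tgfbr2 had 2704 and 3284 bp covered in KO livers (KO 7, KO 8), against 0 and 389 bp in WT livers (WT 2, WT 4). Its widest KO-only region, chr9:116136629-116137430, was inside the gene, with fold enrichments of 13.5 and 8.42. Col14a1 had 3114 and 2867 bp in KO livers, against 806 and 722 bp in WT livers. A region outside the gene span, chr15:55301881-55304816, was called in all 4 libraries and reached past the edge of the window. Over its whole length it covered 2883 and 2091 bp in KO livers, against 806 and 722 bp in WT livers. The 2 KO-only regions lay inside the gene.

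Pdgfra had less PPARg in KO livers, both unscaled and scaled. Its region chr5:75155979-75157321, inside the gene and 3728 bp from the start, covered 397 and 655 bp in KO livers, against 1335 and 992 bp in WT livers. The authors' highest fold enrichment there was 5.01 and 7.30 in KO livers, against 26.6 and 18.8 in WT livers. The same stretch held a CTCF region, chr5:75155468-75157645, called in all 4 CTCF libraries with a fold enrichment of 13.8 and 15.3 in KO livers, against 15.3 and 12.3 in WT livers.

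Fn1 held the most PPARg of the members, in 5 regions shared by all 4 libraries. Its window had 5473 and 6336 bp in KO livers, against 3234 and 2811 bp in WT livers. Scaled to equal list length the order turned, with 3805 and 4336 scaled bp in KO livers, against 5193 and 5885 in WT livers, and Tagln and Col4a1 turned in the same way. The Fn1 region with the highest fold enrichment in KO livers, chr1:71646334-71647697, had 21.04 and 28.1 there, against 9.56 and 7.65 in WT livers. The highest in WT livers was chr1:71634201-71635618, with 12.8 and 9.41 there, against 13.0 and 11.2 in KO livers. Col4a1 had a region at chr8:11220315-11221171 with 28.1 and 22.1 in KO livers, against 9.68 and 5.27 in WT livers. Its other region, chr8:11279392-11279886, had 6.91 and 8.18 in WT livers, against 6.18 in KO 8 and no peak in KO 7.

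Scaled PPARg coverage passed an adjusted limma p of 0.05 at 0 members and 0 of 9023 genes (0%). All scaled KO values lay above WT at 3 of 10 members (31.5% of the 9023 genes) and below WT at 4 (20.4% of them). At an unadjusted limma p under 0.05, 3 of 10 members were higher in KO livers (13.8% of the 9023 genes), namely Col14a1, Col4a2 and Tgfbr2. Another 3 were lower (10.5% of the 9023 genes), namely Pdgfra, Col4a1 and Fn1. Without scaling 3347 genes passed higher and 6 lower in KO livers (adjusted p under 0.05, limma), with Fn1, Col14a1, Col4a2 and Tgfbr2 among those higher. On a log2(scaled bp + 100) scale 989 passed higher and 73 lower, with Col4a2 higher and Pdgfra lower. PPARg WT 4 came from a ligation kit and a looser q threshold than the other 3 lists, and its part in these differences was not tested.

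**Figure D5:**
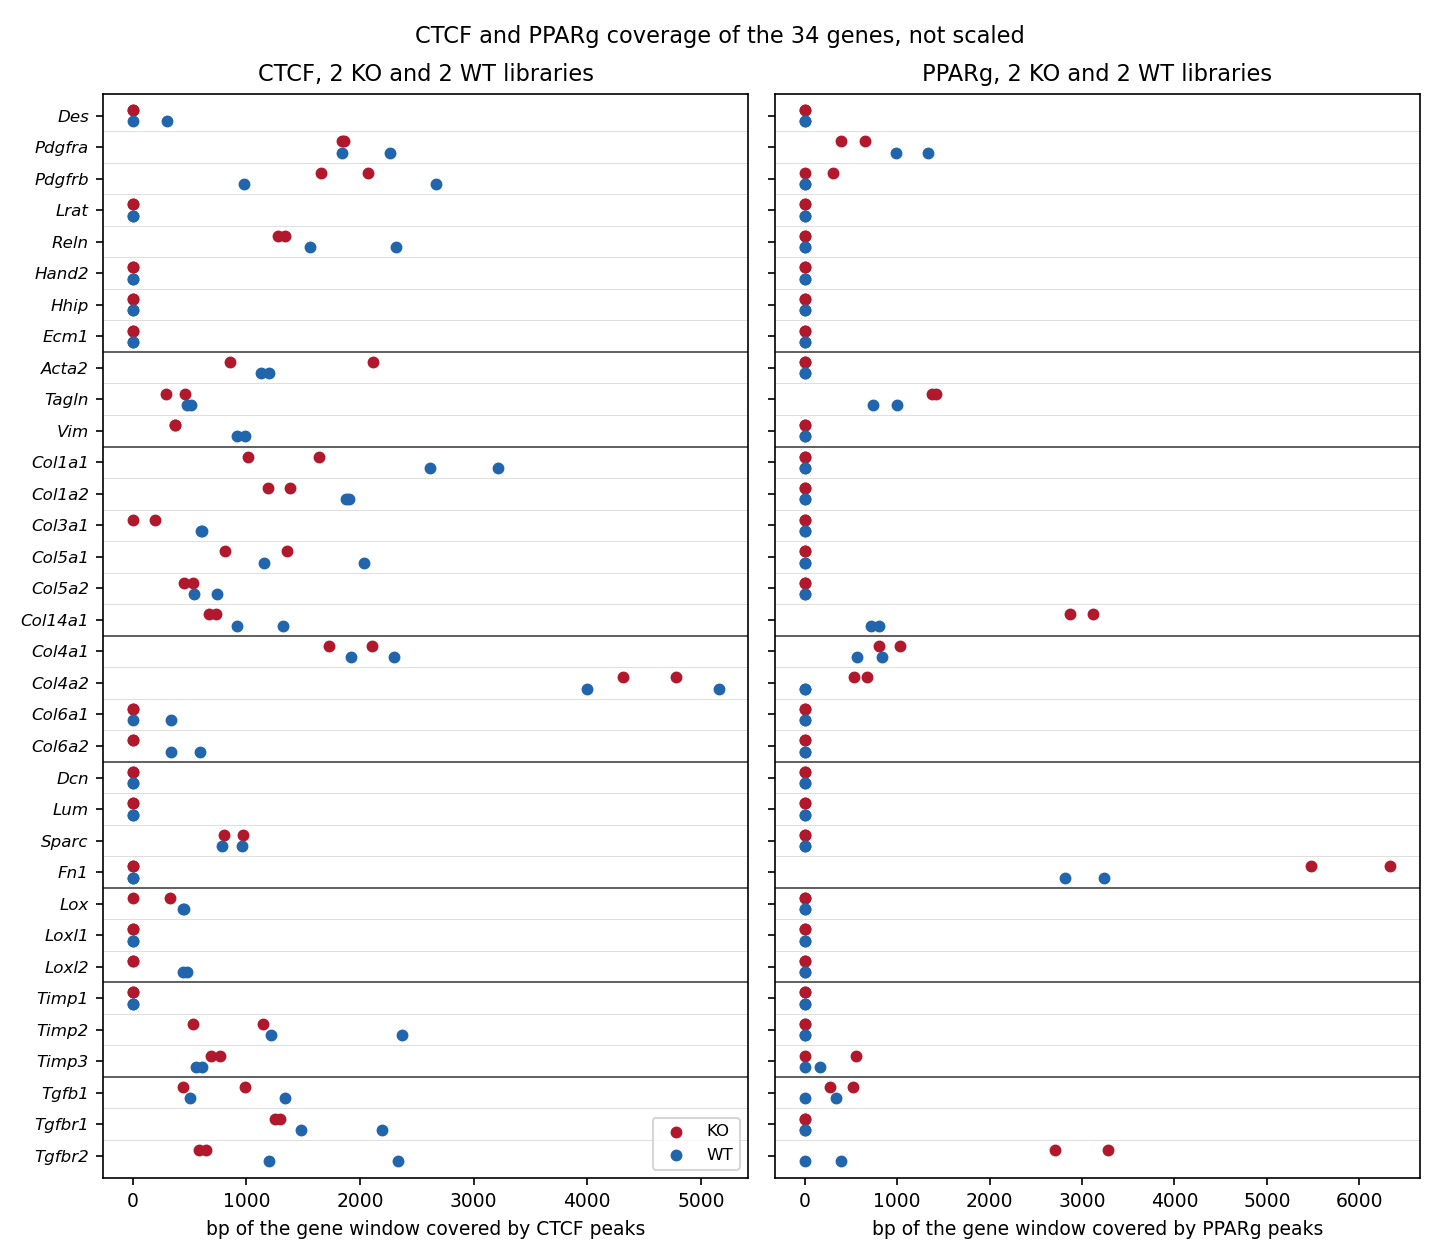
Base pairs of each gene window covered by CTCF (left) and PPARg (right) peaks, 1 point per library, KO in red above WT in blue, not scaled. Col6a2 and Loxl2 have CTCF in the WT libraries alone, and Pdgfra is the member whose red PPARg points both lie to the left of the blue ones.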

How the data were processed

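ChIP-seq peaks were called per library by the authors: narrow peaks for H3K4me3, CTCF and PPARg and broad peaks for H3K27ac and H3K27me3. BWA 0.7.12, Picard 1.77, MACS2 2.1.2, deepTools 3.1.3 and mm10 are named in the submitters' processing notes, and the control used in calling is not given in the sources used here. Each deposited peak carries a fold enrichment (a ratio over local background), −log10 p and q values, a whole-number score that follows the q value, and, in narrow lists, a summit offset, as the authors' peak caller wrote them. The lowest −log10 q was about 1 in the H3K27ac and H3K27me3 lists, 1.31 in H3K4me3 and PPARg WT 4, and 3 in the other lists, so list lengths of different targets can reflect their thresholds. Within a target the lowest value was alike in KO and WT lists, except for PPARg WT 4. That list had a looser threshold but fewer peaks than either PPARg KO list.

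Peaks on the 19 autosomes and the sex chromosomes were merged within each library, H3K4me3 intervals listed once per summit being counted once, and overlapped by at least 1 bp with the windows of 21887 genes. Regions merge the peaks of a target's libraries. Differences were fitted with limma 3.58.1 (R 4.3.3) across all genes with a peak, without blocking, with Benjamini-Hochberg adjustment; the procedure was tested on simulated data. Single libraries were compared at a 2-fold threshold. Shares for limma calls, groups that did not overlap and 2-fold changes are over genes with a peak of that target. This holds also where they are written as shares of all genes. Promoters came from RefSeq (GRCm38.p6), which matched 23 members; Pdgfrb, Tagln, Dcn, Lum, Col1a1, Col5a2, Col14a1, Fn1, Lox, Loxl1 and Loxl2 had no entry. The members, gene lists and tests were chosen with earlier results of these data known. Named genes were all members by role, and in other lists up to 4 genes whose groups did not overlap; some genes of these lists are not reported by name here. Same-numbered H3K27ac libraries (2 and 4) did not deviate together (correlations -0.236 and -0.326). Python 3.11.15, numpy 2.4.6 and pandas 2.3.3 were used. Alternatives covered scaling, list length, q threshold, window, transformation and each library left out.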

Additional observations from a re-analysis of the deposited data

How the results depend on the processing

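The median H3K27ac difference over the members kept its direction under the alternatives run. Single genes turned: PPARg coverage of Fn1, Tagln and Col4a1 with scaling, Lrat H3K27ac without KO 4 (-0.298) and Tagln H3K27ac in windows without other genes (0.546). So did the medians of the endothelial list (-1.20, but 2.29 without scaling) and of the macrophage list (1.55, but -0.691 without KO 4). Genes passing limma's adjusted p for H3K27ac numbered 0 in each direction, but 42 higher and 11 lower in KO livers with percentile ranks and 22 and 5 on a log2(scaled percent + 1) scale, with no member among them. The members' median H3K27ac difference was 4.52 without scaling (all genes 0.916) and 5.55 percentile points as ranks (all genes -1.125). It was 0.731 with lists of equal covered length (all genes 0.166) and 4.85 with lists of equal peak number (all genes 0.640). Among peaks with a −log10 q of at least 5 it was 3.47 (all genes 0.216). Members above WT numbered 4 with equal covered length (7.27% of all genes) and 0 at that q (2.05%), and members below WT 0 at that q (2.24%). Members below WT numbered 1 without scaling (1.57% of genes with a peak), with equal covered length (5.64%) and with equal peak number (2.59%). They also numbered 1 with no flank (7.61%) and in the windows without other genes (8.07%), an alternative chosen after seeing the data. CTCF genes passing numbered 10 higher and 519 lower on a log2(scaled bp + 100) scale; PPARg genes passing numbered 3347 and 6 without scaling and 989 and 73 on that log2 scale. CTCF regions kept numbered 19 at a −log10 q of at least 10, regions lost 2 with equal peak number and with no flank, and regions gained 1 (Vim) with equal peak number. PPARg stood at 5 members in every KO library at a −log10 q of at least 10. H3K27me3 stood at 0 KO and 0 WT members at a −log10 q of at least 5, and at 5 WT members with no flank. The cause of these shifts was not tested.

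With each library left out in turn, the median ranged from 1.38 to 3.37. Members above WT numbered 9 to 15 (10.7% to 14.2% of genes with a peak) and below 2 to 3 (12.3% to 18.8%). With all 6 libraries these shares were 7.46% and 8.67%. CTCF regions lost ranged from 4 to 13, kept from 29 to 31 and gained from 0 to 1, with shares near all genes not taken. Members with PPARg ranged from 8 to 10 in every KO and from 5 to 8 in every WT library. With the replicate number as a replicate block, 0 genes passed for H3K27ac in either direction (406 higher and 437 lower at an unadjusted limma p under 0.05); the CTCF and PPARg groups share no numbers. Peak lists hold no read depth, so a peak not called may lie just under a threshold.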
